A study of Rattus norvegicus with 3 samples.

Results

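Blood mononuclear cell RNA of rats that ran uphill on a treadmill was compared with that of control rats, 1 array a side. A gene was counted where exactly 1 symbol named the probe set, the brightest probe set stood for a gene with several, and the brighter of both arrays reached an intensity of 353.12, the median of all gene values. This left 7320 of 13892 genes, measured on 2 of the 3 arrays of the series. Both groups, and the downhill running group whose level is printed beside them, were 2-month-old male Sprague–Dawley rats, and they differed by label only in the treadmill treatment. Mononuclear cells of peripheral blood, meaning lymphocytes and monocytes, had been prepared from 2 ml of a mixture, and biotin-labelled cRNA had been made from 100 ng of total RNA. How many rats stand behind an array, how fast, steep and often they ran, and when blood was drawn are not stated in the labels. With 1 array a group there was no replicate spread, so every difference below compares these arrays, carries no p-value and cannot be set against replicate error.

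Blood cells change their RNA during exercise in part because other cells enter the circulation, driven by adrenaline, blood flow and cortisol-like hormones, and in part because the cells themselves respond. Early response genes, such as the AP-1 subunits and Nr4a1, are transcribed within minutes of a stimulus and their mRNAs are short-lived. Red cells lack a nucleus, but young red cells, the reticulocytes, still carry globin and haem enzyme mRNA, and a mononuclear cell preparation can hold some of them. In these bulk samples, more or fewer cells of a type and more or less RNA per cell cannot be told apart.

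The arrays were alike in broad measures. Over 31099 probe sets, median intensities ran from 216.51 (uphill) to 228.74 (control), and the share called present from 52.4% (downhill) to 54.4% (uphill). Actin probes at the 3' end were 2.39 times as bright as those at the 5' end on the control array, 2.68 times on the uphill array and 2.87 times on the downhill array, a gauge of RNA integrity and labelling. Defining genes of T cells (Cd3g, 6820 on the control array), B cells (Ms4a1, 2582), cytotoxic lymphocytes (Prf1, 6699.8) and monocytes (Lyz2, 19338) were all present, as the label requires. Genes of platelets (Pf4, 31873) and of neutrophils (S100a9, 19855, which monocytes also express) were as bright or brighter. Skeletal muscle genes were near the floor, and the brightest on the control array, the fast troponin Tnni2, was called absent on all 3 arrays. Tnnt3 was called present on all 3, at 288.53 on the control, 421.76 on the uphill and 285.37 on the downhill array. Myl11 was present on the control (394.4) and uphill (271.08) arrays. Of 3 counted muscle genes, each counted through 1 array alone, 1 was higher, and over all 9 on the array 2 were, with a median of -0.044. The median of the 3 was -0.54, which became 0.00338 over the members present on the brighter array.

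Of the 7320 genes, 95 differed at least 2-fold (1.3%), with 61 higher (0.833%) and 34 lower (0.464%) on the uphill array. At a fold of 1.5 the counts were 240 higher (3.28%) and 225 lower (3.07%). In either direction, 3987 genes were higher (54.5%) and 3333 lower (45.5%), with a median log2 difference of 0.028, and 95% of genes lay between -0.62 and 0.65. Of the 61 higher genes 54 were called present on the brighter array, and of the 34 lower genes 25 were. The higher genes were more often bright than dim. In the dimmest of 4 equal groups by intensity 12 genes were higher and 9 lower, and in the brightest 23 were higher and 7 lower. A gene that reached the floor on only 1 of both arrays had to differ, which held for 268 genes through the uphill array and 433 through the control array, so lists that hold several of them are also given over every member on the array. Over all 13892 genes the median log2 difference was -0.014. At the threshold itself, Atp6v1a, a subunit of the lysosomal proton pump (952.05 against 1912), and Arid5a were just past 2-fold higher, at 1.01 on the log2 scale for each, while Niban2 and Gyg1 stopped just short at 0.99. On the lower side Akt2, a kinase of insulin signalling, was just past 2-fold (961.67 against 479.97) and Lpo just short (521.32 against 260.87).

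**Figure D1:**
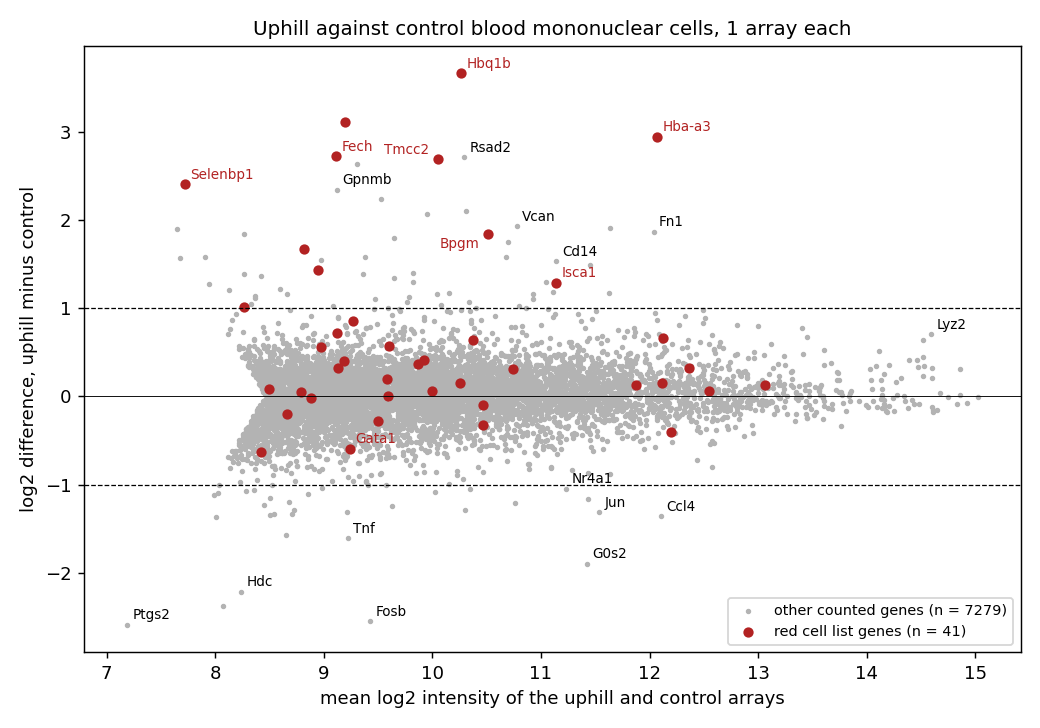
Log2 difference between the uphill and control arrays (vertical axis) against the mean log2 intensity of both arrays (horizontal axis) for the 7320 counted genes, 1 point a gene. Red cell list genes and the largest differences stand out from a band in which 95% of genes lie between -0.62 and 0.65.

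Genes of red cells held the largest differences upward among the counted genes, and they are given apart from leukocyte genes. The 5 red cell lists held 63 genes on the array, of which 41 were counted. Of these 41, 11 exceeded control by 2-fold or more and 0 were as far below, against 0.833% and 0.464% of all counted genes, and 33 were higher in any degree, with a median of 0.32, against 54.5% and 0.028. Of the 41, 8 reached the floor through the uphill array alone. Over all 63 genes 50 were higher, 14 at least 2-fold, with a median of 0.31 and 0 at least 2-fold lower. Without the red cell lists, 50 of 7279 genes were 2-fold or more above control and 34 as far below.

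Of the 7 genes of the globin list on the array (globins and their chaperone Ahsp), 6 were higher on the uphill array, 4 of them at least 2-fold, with a median of 1.68. Only those 4 reached the floor, 3 of them through the uphill array alone, so their median of 3.03 is high in part by construction. Hbe2, Hbg1 and Hbz stayed below the floor and were called absent on all 3 arrays. Where 3 levels are given for a gene, here and below, they stand in the order control, uphill and downhill array. Hbq1b, a theta globin, was at 346.27 on the control array, 4380 on the uphill array and 220.26 on the downhill array, at least 12.7-fold higher on the uphill than on the control array. Hba-a3, an alpha globin, was at 1548, 11906 and 772.31 in that order, at least 7.69-fold higher. Only the uphill array was called present for both genes. Ahsp, the chaperone that holds free alpha globin, was at 253.39, 809.15 and 324.66, at least 3.19-fold higher. The embryonic globin Hbe1 was at 199.85, 1728 and 148.19 but was called absent on all 3 arrays, so no fold is given. The adult alpha and beta chains are measured by 5 probe sets that match several haemoglobin genes and so stand outside the gene count. The brightest of them, for Hba-a2, was at 6008 on the control array, 33326 on the uphill array and 3999 on the downhill array, and it was the brightest of all probe sets on the uphill array. A probe set for Hbb, the beta chain, was at 1996, 26533 and 1339. Over the 11 haemoglobin probe sets, haemoglobin took 0.0985% of the summed intensity of the control array, 0.709% of the uphill array and 0.0656% of the downhill array.

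Most genes of haem synthesis and its iron supply were higher, by unequal amounts. Fech, which inserts iron into the porphyrin ring as the last step, was at 215.17 on the control array, 1423 on the uphill array and 250.56 on the downhill array, 6.61-fold higher on the uphill than on the control array. Isca1, an iron-sulphur cluster assembly factor, was at 1442, 3526 and 1367. Its other probe set above the floor had a log2 difference of -0.16, so the Isca1 probe sets disagree. Alas2, the first and rate-limiting enzyme of the red cell pathway, was at 458.91 (called absent), 828.8 and 383.28, at least 1.81-fold higher, and Glrx5, a cluster carrier, was 0.64 higher on the log2 scale. The transferrin receptor Tfrc, which marks the earliest reticulocytes, was at 1458, 1367 and 1169.9, so its levels did not follow those of the globins. The haem list had 9 of 11 counted members higher, a median of 0.41, and 2 at least 2-fold higher.

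Fech and Alas2 are shown with the 250 bases before their RefSeq start sites on GRCr8, because they are the red cell genes at least 1.5-fold higher whose window holds AGATAA, the site letters of the red cell factor Gata1, or their reverse complement (capitals). The Fech window lies at chr18:60248526-60248775 on the minus strand, the match 135 bases before the start, and the Alas2 window at chrX:22895200-22895449 on the plus strand, the match 136 bases before the start.
Fech: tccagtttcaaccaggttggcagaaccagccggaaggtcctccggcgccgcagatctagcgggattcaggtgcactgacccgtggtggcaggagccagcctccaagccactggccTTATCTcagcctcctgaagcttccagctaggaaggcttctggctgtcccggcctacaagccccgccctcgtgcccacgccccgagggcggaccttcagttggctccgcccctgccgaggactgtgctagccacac
Alas2: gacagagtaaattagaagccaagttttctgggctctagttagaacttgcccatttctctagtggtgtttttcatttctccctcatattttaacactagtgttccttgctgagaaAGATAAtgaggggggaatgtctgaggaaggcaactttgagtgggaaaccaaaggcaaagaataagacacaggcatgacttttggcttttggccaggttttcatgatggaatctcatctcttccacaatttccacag
In windows of 250 bases before to 50 after the start, read on both strands, AGATAA was in 11.3% of all 27457 promoters. Over all counted genes with a promoter, 6.01% held AGATAA. It was in 3 of the 29 counted red cell genes with a promoter and in 2 of the 11 such genes at least 1.5-fold higher. A match is a description of the letters and not a bound site.

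Red cell membrane genes went both ways. Tmcc2 was at 417.71, 2699 and 362.77 on the control, uphill and downhill arrays, 6.46-fold higher on the uphill than on the control array. Kel, a blood group antigen, was at 217.13 (absent), 438.75 and 240.13, at least 2.02-fold higher. In contrast Rhag, of the Rh complex, was at 795.66, 655.52 and 482.42, Gypc was -0.32 and the actin-capping protein Tmod1 was -0.63 but absent on the control array. Dmtn, also lower at -0.20, was absent on all 3 arrays. The list had 4 of 8 counted members higher, with a median of -0.070. It became 0.55 when a gene's probe sets were averaged and 0.54 when the brighter array had to be called present. Over every member on the array 11 of 17 were higher, 4 at least 2-fold and 0 at least 2-fold lower, with a median of 0.059. Slc4a1, the band 3 anion exchanger, was looked at after its values were seen. The probe set that stood for it, brighter on average over the 3 arrays, was at 245.46, 253.81 and 204.81 and so below the floor. The other was at 126.09, 913.5 and 100.68, and would stand for the gene if only the control and uphill arrays set the choice.

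Among red cell enzymes, 11 of 11 counted members were higher, with a median of 0.37. Bpgm, which makes the 2,3-bisphosphoglycerate that loosens oxygen from haemoglobin, was at 771.75, 2766 and 682.1, 3.58-fold higher, and its other probe set differed by 2.39 on the log2 scale. Selenbp1, a selenium-binding protein abundant in red cells, was at 91.4 (absent), 485.16 and 83.83, at least 5.31-fold higher. Prdx2, the main red cell peroxiredoxin, was 0.67 higher on the log2 scale. Car2, a carbonic anhydrase, was 0.72 higher by its brighter probe set (432.73, 715.03 and 451.18) and 2.35 higher by its other probe set (228.11, 1162 and 230.25), which was looked at after its values were seen. The counted transcription factors of red cell precursors did not follow the globins. Gata1 was at 741.16, 491.47 and 527.09, 1.51-fold lower on the uphill than on the control array, Nfe2 was -0.40 and Tal1 0.13. Of 7 counted factors 5 were higher, with a median of 0.085 and none at least 1.5-fold higher. Over all 9 on the array 7 were higher, 1 at least 2-fold, with a median of 0.12. The 2 below the floor were Hemgn, at 116.5, 290.15 and 119.01, and Klf1, at 155.92, 276.08 and 180.18. Hemgn was called present on the control and uphill arrays, and Klf1 was absent on all 3. Gata1, Nfe2 and Tal1 are also expressed by platelet precursors, whose markers were higher in 3 of 11, with a median of -0.11 and with P2ry12 at -0.55 and Gp5 at -0.46. The part of platelet RNA in these factors' levels was not tested.

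**Figure D2:**
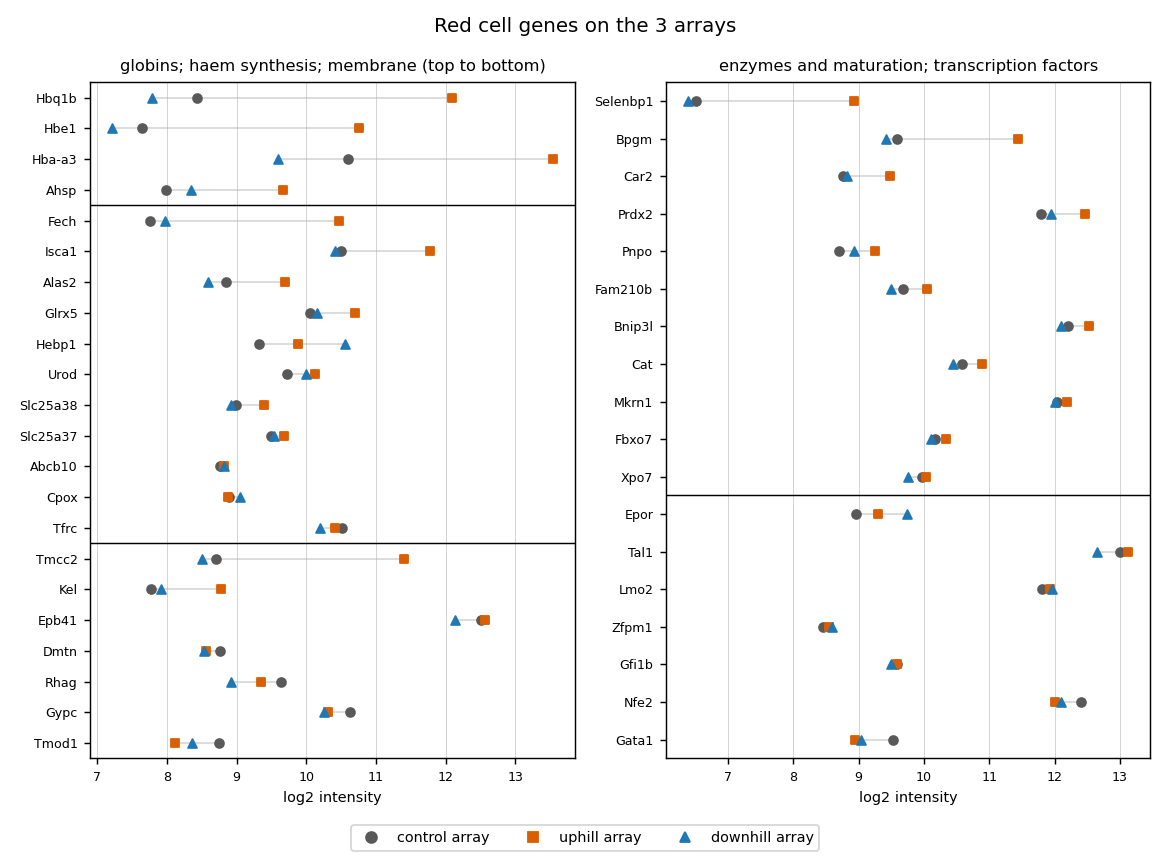
Log2 intensity (horizontal axis) of the counted red cell genes reported here on the control, uphill and downhill arrays, 1 marker an array, grouped by list. The globins, Fech, Tmcc2 and Bpgm sit to the right on the uphill array, while Rhag, Gypc, Nfe2 and Gata1 do not.

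Outside the red cell lists, the 20 largest differences upward included genes high on both running arrays and genes high on the uphill array alone. Rsad2, which makes an antiviral nucleotide, was at 489.34 on the control array, 3201 on the uphill array and 313.24 on the downhill array, 6.54-fold higher. Gpnmb, a glycoprotein of lipid-laden macrophages, was at 247.63, 1258 and 1755. The proteoglycan Vcan was at 899, 3430 and 4047, the ficolin Fcnb at 1648, 6178 and 8932, and fibronectin, Fn1, at 2200.5, 8023 and 7564. For these 4 genes the downhill array was high as well, while Rsad2 was high on the uphill array alone.

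Further genes among these 20 were high on both running arrays. Clec10a, a galactose-binding receptor of monocytes, was at 431.39, 1496 and 1586, and Cd14, the endotoxin co-receptor, at 1330.0, 3844 and 4341. Thrombomodulin, Thbd, was at 384.86, 1154 and 1584 (a log2 difference of 1.58, or 0.87 with its probe sets averaged), and Ass1, of arginine synthesis, at 189.68, 496.57 and 694.12. The adhesion protein Tgfbi was at 1675, 4693 and 3994 and Sulf2, a heparan sulphate editing enzyme, at 555.45, 1468 and 1359. For others only the uphill array was high, as for RGD1564887 and Pgrmc2, whose levels are given below. Tldc2 was at 611.96, 2619.8 and 614.05, Sephs2, which makes the selenium donor for selenoproteins, at 945.71, 2829 and 943.79, and Dusp12, a phosphatase, at 162.24, 582.15 and 141.78. Cdr2 was at 214.42, 552.01 and 257.15, a fold of 2.57. Gas7, Hp and Anpep lay between, with downhill levels between those of control and uphill. Hp, haptoglobin, which binds free haemoglobin, was at 405.99, 1064 and 609.99.

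The probe sets of these genes did not all agree. The 4 other Vcan probe sets above the floor differed alike, by 1.75 to 2.23 on the log2 scale. Pgrmc2, a haem-binding membrane protein, was at 484.34, 2027 and 495.51 by its brightest probe set, but its other probe sets differed by 0.19 and -0.00062. RGD1564887 was at 339.74, 1607 and 306.12, and its other probe set differed by 0.085. Across the 1290 counted genes that had a second probe set brighter than 353.12, the difference between probe sets had a median of 0.21 on the log2 scale and a 95th percentile of 0.77. Of the 16 genes at least 2-fold different that had another probe set above the floor, 9 had every other probe set at least 1.5-fold the same way and 7 had none. Those 7 were Anxa4, Cfp, Isca1, Pgrmc2, Plbd1, RGD1564887 and Tnf, of which Anxa4, Cfp and Plbd1 are named after their values were seen.

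**Figure D3:**
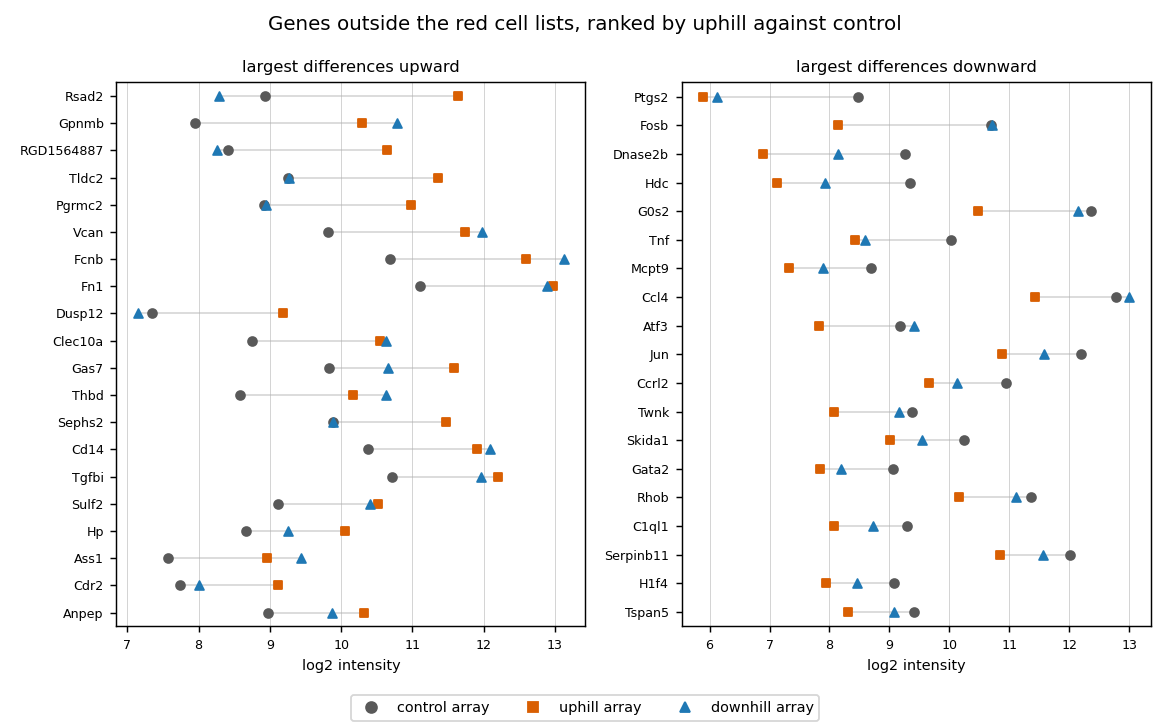
Log2 intensity (horizontal axis) on the control, uphill and downhill arrays of the genes reported here among the 20 largest differences each way outside the red cell lists, ordered by size. Rsad2, Tldc2 and Sephs2 stand high on the uphill array alone, and Gpnmb, Vcan and Cd14 on both running arrays.

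Monocyte markers were higher together. All 15 counted monocyte genes were higher, 3 of them at least 2-fold, with a median of 0.56, against 54.5% of all counted genes and a median of 0.028. Over every member on the array 18 of 20 were higher, with a median of 0.47. Besides Vcan, Clec10a and Cd14, the ficolin Fcna was at 339.16, 585.38 and 808.34, lysozyme, Lyz2, at 19338, 31467 and 30365, and Cd68, a lysosomal glycoprotein, at 2204, 3419.5 and 4648. Markers of the general monocyte programme differed less, with the growth factor receptor Csf1r at 3200, 4144 and 4282 and the integrin Itgam at 641, 707.08 and 588.76. Most neutrophil markers were not higher. S100a8 was at 11312, 11388 and 4622, and Pglyrp1, a granule protein, at 1254, 968.76 and 205.97, so that both were lowest on the downhill array. Mmp9 was 1.53-fold lower on the uphill than on the control array, and 2 of 8 counted neutrophil genes were higher, with a median of -0.34. The other Mmp9 probe set, below the floor, differed by 0.15 on the log2 scale.

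Counted markers of T cells, B cells, natural killer and cytotoxic cells and platelets stayed within 1.5-fold. Over all counted genes 54.5% were higher, with a median of 0.028. Of the T cell genes 8 of 15 were higher (median 0.043, below 0 after quantile normalization), of the B cell genes 8 of 8 (median 0.17), of the natural killer and cytotoxic genes 12 of 16 (median 0.22) and of the platelet genes 3 of 11 (median -0.11). Il7r, the interleukin-7 receptor of resting T cells, was at 1583, 2191 and 1621, and Cd5 at 3102, 2288 and 2653. Gzmk, a granzyme, was at 8580, 10960.0 and 9181, and Ncr1, an activating receptor of natural killer cells, at 672.98, 480.34 and 679.69. Platelet receptor P2ry12 was at 1593, 1089.8 and 985.19. In the plasma cell list, with 3 of 5 higher and a median of 0.26, the secretory factor Xbp1 was at 1995, 3070.3 and 3214. Of dendritic cell genes only 2 were counted, Tcf4 at 1418, 1687 and 1536 and Flt3, which was called absent on all 3 arrays.

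Genes of basophils and mast cells were lower. Hdc, which makes histamine, was at 649.65 on the control array, 139.97 on the uphill array and 242.85 on the downhill array, 4.64-fold lower on the uphill than on the control array. The protease Mcpt9 was at 414.28, 160.23 and 236.48, 2.59-fold lower, and the lineage factor Gata2 at 535.04, 228.48 and 293.67, at least 2.34-fold lower since it was called absent on both running arrays. These 3 were counted through the control array alone, so over them a lower level follows in part from the floor. Over all 11 genes of the list on the array 10 were lower, with a median of -0.77. Of the 8 members below the floor, Cpa3, a mast cell protease, was at 193.96, 171.17 and 173.98, Fcer1a, the IgE receptor chain, was at 228.85, 85.19 and 116.05 and Ms4a2, its beta chain, at 169.85, 113.31 and 107.99, while the eosinophil genes Prg2, Epx and Ccr3 were absent on all 3 arrays. Hdc and Mcpt9 were highest on the control array and lowest on the uphill array. For Gata2 both running arrays were below a present call and are not ranked, and its other probe set, absent on all 3 arrays, was at 172.85, 172.58 and 189.12.

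**Figure D4:**
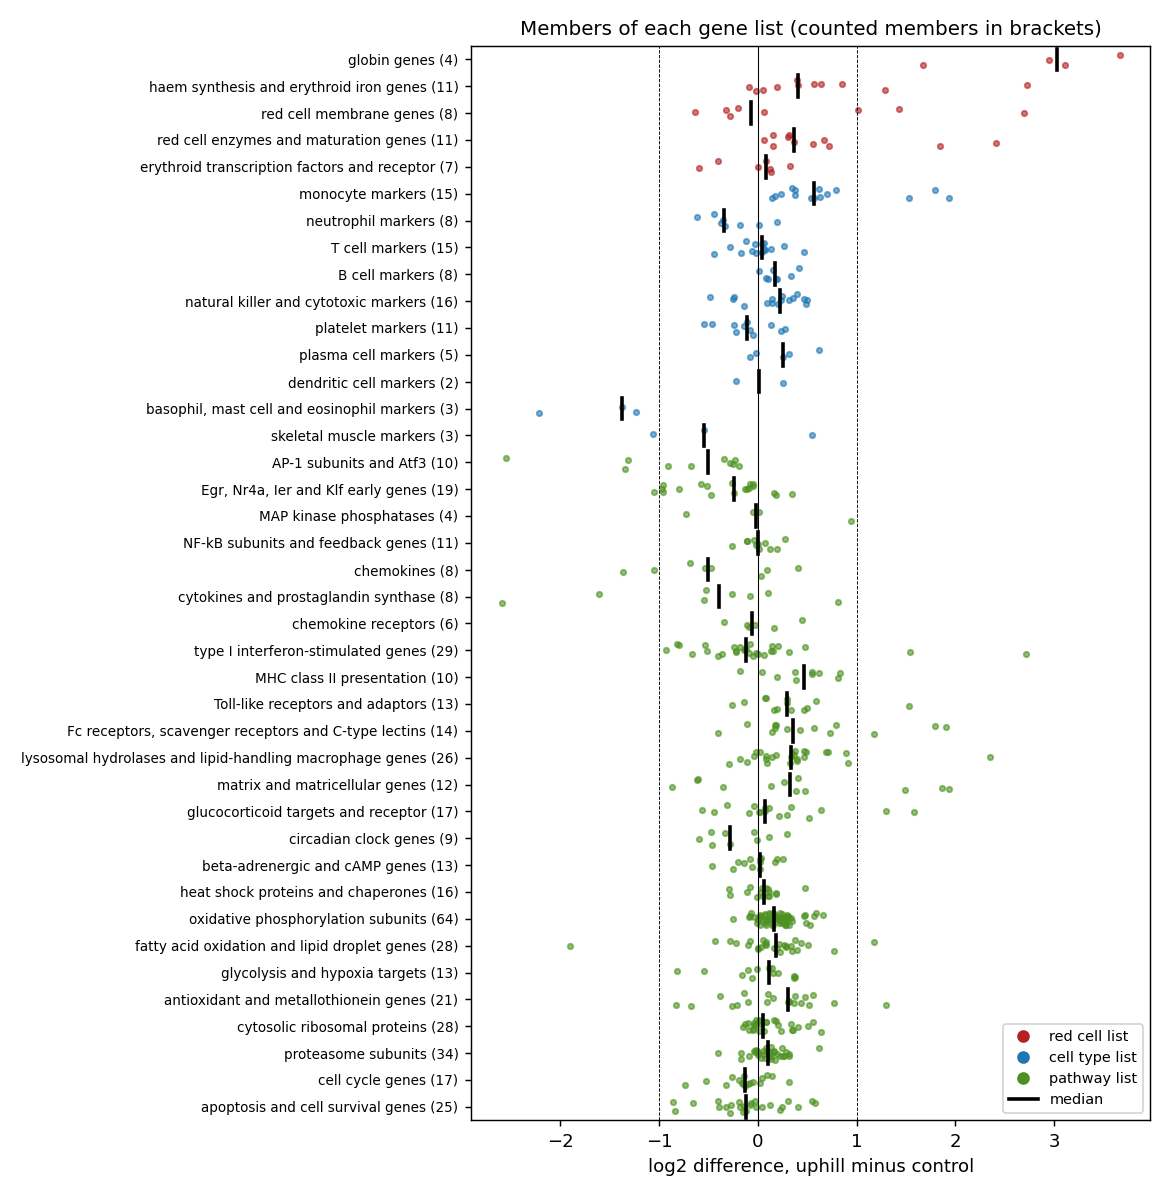
Log2 difference between the uphill and control arrays (horizontal axis) for the counted members of each gene list, 1 point a gene, with the list's median. Monocyte markers (median 0.56) lie to the right of all counted genes (0.028). AP-1 subunits (-0.51) lie to the left, 2 of them counted through the control array alone. The 4 globin list genes shown (median 3.03) include 3 counted through the uphill array alone.

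Early response genes were lower on the uphill array. All 10 counted AP-1 subunits and partners were lower, 3 at least 2-fold, with a median of -0.51, against 45.5% of all counted genes. Of the 10, 2 (Fosb and Atf3) reached the floor through the control array alone and so had to be lower. Over every member on the array 12 of 12 were lower, with a median of -0.43, and over those past a floor at the 75th percentile the median was -0.28. Fosb was at 1661 on the control array, 284.06 on the uphill array and 1677 on the downhill array, 5.85-fold lower on the uphill than on the control array. Atf3, a stress-induced repressor, was at 578.03, 227.41 and 677.93, 2.54-fold lower. Jun was at 4677, 1884 and 3047, 2.48-fold lower, and its other probe sets differed by -2.14 and -2.10 on the log2 scale. For Fosb and Atf3 the downhill array stood at or above the control array, whereas for Jun it lay between. The small Maf proteins Maff (819.9, 436.82 and 609.21) and Mafg (-0.67) were lower, and Junb (-0.23) and Jund (-0.28) less so.

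Of the other early genes, 16 of 19 counted were lower, 1 at least 2-fold, with a median of -0.24. Nr4a1, an orphan nuclear receptor, was at 3462, 1675 and 3023, 2.07-fold lower, and its relative Nr4a2 at 938.58, 478.49 and 602.12. Ier3, a survival gene, was at 755.71, 387.49 and 502.83, and Klf2, which keeps lymphocytes quiescent, at 8034, 4622 and 7419. Hes1, a Notch target, was at 936.99, 481.85 and 1735, so it was below control on the uphill array and above control on the downhill array. Egr1 was at 2968, 2139 and 2816. The feedback genes Zfp36 (9914, 9569.5 and 7401) and Btg2 (8499.6, 8034 and 7876) were close together on the control and uphill arrays. Of the MAP kinase phosphatases Dusp2 was at 7132, 4324 and 7106 and Dusp6 at 1614, 3092 and 4634, while Dusp1 was at 9278, 9339 and 7545, and 2 of 4 counted phosphatases were higher with a median of -0.021. The other Dusp1 probe set, at 687.01, 469.89 and 695.26, differed by -0.55 on the log2 scale.

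Nr4a1 and Maff are shown with the 250 bases before their RefSeq start sites on GRCr8, because early genes are known targets of the cAMP-responsive factor CREB, whose site is TGACGTCA with TGACG as its shorter core (capitals mark either, or its reverse complement). The Nr4a1 window is chr7:134259888-134260137 and the Maff window is chr7:112792537-112792786, both on the plus strand.
Nr4a1: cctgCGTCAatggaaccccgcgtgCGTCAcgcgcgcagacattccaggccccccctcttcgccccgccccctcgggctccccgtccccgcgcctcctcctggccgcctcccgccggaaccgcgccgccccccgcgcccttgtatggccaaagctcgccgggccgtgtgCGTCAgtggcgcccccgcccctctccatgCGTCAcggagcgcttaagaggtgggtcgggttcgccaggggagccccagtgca
Maff: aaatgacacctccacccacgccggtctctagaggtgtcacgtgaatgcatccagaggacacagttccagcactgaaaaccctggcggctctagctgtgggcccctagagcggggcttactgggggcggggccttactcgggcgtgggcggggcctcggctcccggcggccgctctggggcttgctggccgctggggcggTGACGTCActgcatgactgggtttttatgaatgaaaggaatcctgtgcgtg
Nr4a1 held 4 short cores, from 246 to 53 bases before the start, and no full site, and Maff held 1 full site 51 bases before the start, which contains the short core. The full site was in 1.91% and the short core in 21.96% of all 27457 promoters. Of the counted early genes 22 of 29 had a promoter in the table, with the full site in 4 (18.2%) and the short core in 13 (59.1%). The AP-1 site TGANTCA was in 7.33% of all promoters and in 1 of these 22 (4.55%). Over all counted genes with a promoter, 3.31% held the full site, 34.8% the short core and 4.76% the AP-1 site. The 4 early genes with the full site were Maff (a log2 difference of -0.91), Jund (-0.28), Ier2 (-0.13) and Btg2 (-0.081). Of the 10 early genes at least 1.5-fold lower, 6 had a promoter, with the full site in 1 and the short core in 4. A match describes the letters, and not a bound site or the difference between the arrays.

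**Figure D5:**
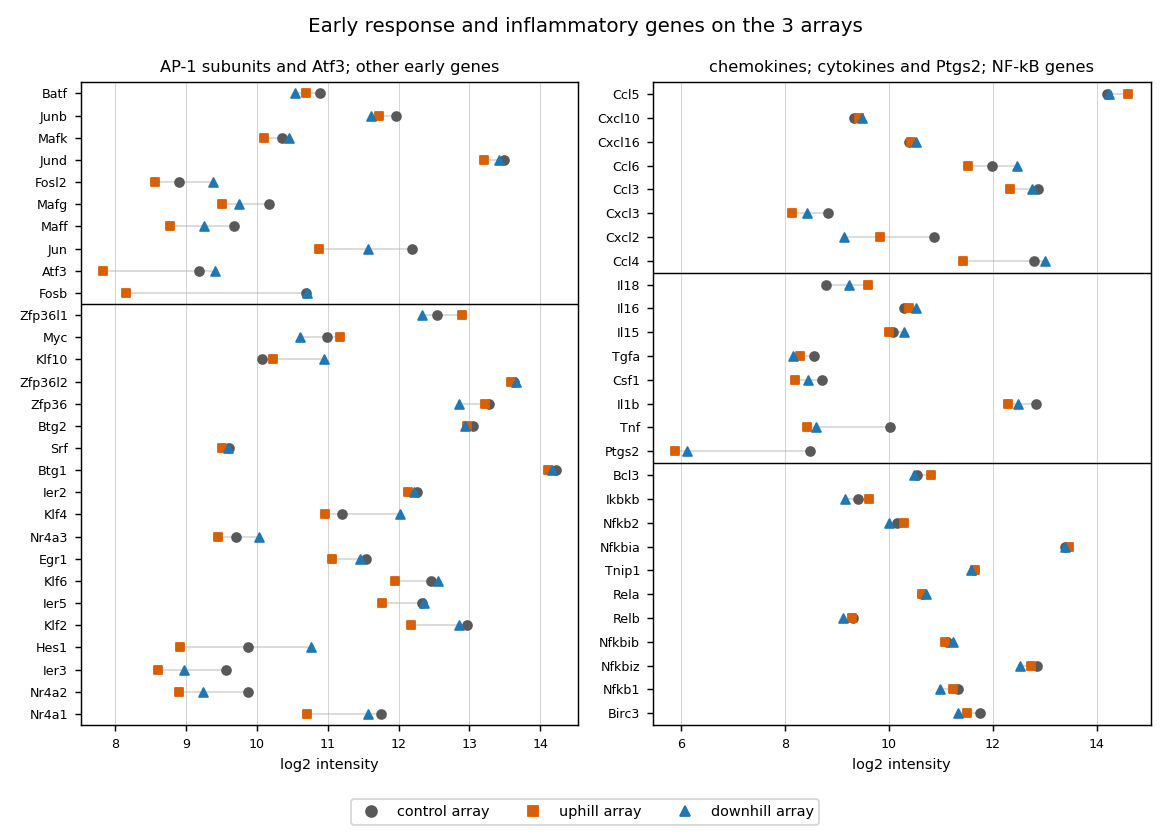
Log2 intensity (horizontal axis) of the counted early response, chemokine, cytokine and NF-kB genes on the control, uphill and downhill arrays, 1 marker an array. Fosb, Atf3 and Jun stand lowest on the uphill array, and NF-kB genes lie close together.

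Inflammatory ligands were lower in part. Ptgs2, which makes prostaglandins, was at 357.09 on the control array, 59.41 on the uphill array and 69.66 on the downhill array, 6.01-fold lower on the uphill than on the control array. Its control level was just past the floor of 353.12, so it was counted through the control array alone. With 32 added before log2, its log2 difference of -2.59 became -2.09. Tnf was at 1044, 342.25 and 387.47, 3.05-fold lower, but its other probe set differed by -0.40 on the log2 scale. Ccl4, a chemokine of activated lymphocytes and monocytes, was at 7059, 2749 and 8182, 2.57-fold lower, and the neutrophil chemokine Cxcl2 at 1878, 906.5 and 564.64, 2.07-fold lower. For Ptgs2, Tnf and Cxcl2 both running arrays were low, whereas for Ccl4 the uphill array alone was. Il1b was at 7295, 5007 and 5723, Il18 at 442.58, 774.28 and 605.01, and Ccl5 at 18660.0, 24816 and 19330.0. Of 8 counted chemokines 5 were lower (median -0.50), and of 8 counted cytokine genes 6 (median -0.39), of which 4 were counted through the control array alone. Over every member on the array 11 of 18 chemokines (median -0.24) and 12 of 18 cytokine genes (median -0.15) were lower. Of all counted genes 45.5% were lower, and of all 13892 genes on the array 7244 were, with a median of -0.014. Ccl2, a monocyte-attracting chemokine below the floor on both arrays and named after its values were seen, was at 183.57, 296.3 and 764.68. The list of NF-kB subunits and their feedback genes held 6 of 11 higher, with a median of 0.0065 that was below 0 after quantile normalization, and Nfkbia was at 10780.0, 11315 and 10783. The list of chemokine receptors, which also holds the sphingosine-1-phosphate receptors S1pr1 and S1pr5, had 2 of 6 higher and a median of -0.055. It ranged from -0.34 for S1pr5 to 0.44 for Ccr1, and its lowest counted chemokine receptor was Cxcr4 at -0.084.

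Further genes among the 20 with the largest difference downward had other roles. G0s2, an inhibitor of fat breakdown by the lipase Pnpla2, was at 5285, 1421 and 4502, 3.72-fold lower, and the nuclease Dnase2b at 613.37, 118.29 and 281.39, 5.19-fold lower. Ccrl2, a chemerin-binding receptor, was at 1966, 805.23 and 1114, and the small GTPase Rhob, itself an early response gene, at 2628, 1141 and 2199. Serpinb11 was at 4136, 1848 and 3033, and the linker histone H1f4 at 541.89, 244.73 and 353.81. Skida1, C1ql1 and Tspan5 were 2.36-fold, 2.30-fold and 2.15-fold lower, and the mitochondrial helicase Twnk at least 2.44-fold. With all their probe sets averaged, the log2 differences shrank to -0.61 for Skida1, -0.61 for Gata2, -0.49 for Tspan5 and -0.54 for Twnk. On the Rnor3.4 assembly the G0s2 probe set aligned to chromosome 13 (109121296 to 109121712, minus strand), the Ptgs2 transcript to chromosome 13 (64427165 to 64435400, plus strand), Ccl4 to chromosome 10 (71759428 to 71761403, plus strand) and Jun to chromosome 5 (115358170 to 115360754, minus strand).

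Most interferon-stimulated genes did not share the level of Rsad2. Of 29 counted genes 10 were higher, 2 of them at least 2-fold, and 19 lower, with a median of -0.12. Over all counted genes 54.5% were higher, with a median of 0.028. The second 2-fold gene was Ifih1, an RNA sensor, at 295.35, 860.54 and 225.39 but called absent on all 3 arrays. Ifi27 and Parp9, named after their values were seen, were 0.48 and 0.31 higher on the log2 scale. Ifit2, an RNA-binding antiviral protein, was at 1716, 899.26 and 1366, the ubiquitin-like Isg15 at 2527, 1434 and 1989.5, Ifit3 at 1806, 1039 and 1442, and the tethering protein Bst2 at 2512, 1584 and 3179. Mx1, a GTPase that blocks influenza virus, was at 4646, 4106 and 5086. Cmpk2, whose gene neighbours Rsad2 and whose enzyme helps to supply its substrate, was at 462.61, 534.05 and 517.6, a log2 difference of 0.21. Rsad2 and Ifit3 are shown because they lay toward opposite ends of the list while both windows hold the interferon response element, read here as GAAA, any 2 bases and GAAA, or the reverse complement (capitals). The Rsad2 window is chr6:48788121-48788370 on the minus strand, with the match 147 bases before the start, and the Ifit3 window is chr1:241527076-241527325 on the plus strand, with the match 44 bases before the start.
Rsad2: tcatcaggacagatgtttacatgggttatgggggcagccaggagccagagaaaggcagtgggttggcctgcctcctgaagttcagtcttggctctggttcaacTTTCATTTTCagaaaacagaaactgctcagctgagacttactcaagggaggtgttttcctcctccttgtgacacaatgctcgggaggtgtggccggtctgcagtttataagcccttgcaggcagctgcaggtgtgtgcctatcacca
Ifit3: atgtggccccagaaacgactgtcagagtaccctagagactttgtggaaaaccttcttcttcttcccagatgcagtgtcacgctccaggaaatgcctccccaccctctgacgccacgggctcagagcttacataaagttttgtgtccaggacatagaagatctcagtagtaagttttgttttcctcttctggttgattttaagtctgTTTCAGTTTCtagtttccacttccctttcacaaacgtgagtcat
The element was in 3.77% of all 27457 promoters and in 15 of the 22 counted interferon-stimulated genes with a promoter (68.2%). That share describes the list, whose members include genes known for this element, and not the difference between the arrays.

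Genes of antigen presentation, phagocytosis and the lysosome were higher beside the monocyte markers. Over all counted genes 54.5% were higher, with a median of 0.028. Of 10 counted MHC class II genes 9 were higher, none 2-fold, with a median of 0.47. Ifi30, a lysosomal reductase, was at 4312, 7681 and 7496, the protease Lgmn at 1542, 2711 and 2411, and RT1-DMb, a peptide exchanger, at 4153, 6091 and 5949. Cd74, the invariant chain, which B cells also make, was at 14487, 14935 and 14568. Among 14 counted Fc, scavenger and lectin receptors 12 were higher (median 0.36), with the fatty acid and lipoprotein receptor Cd36 at 2101, 4751 and 3381 and Clec7a, the beta-glucan receptor, at 2896, 4814 and 4424. Of 26 lysosomal and lipid-handling genes 21 were higher (median 0.34). Progranulin, Grn, was at 4279, 7954 and 5465, galectin-3, Lgals3, at 3743, 7025 and 8731, and Psap, a precursor of sphingolipid activators, at 3391, 5548 and 5126. Of 13 Toll-like receptor genes 11 were higher (median 0.29), with Tlr2 at 853.08, 1181 and 1153 and Unc93b1, the chaperone of endosomal receptors, at 2099, 3149 and 3669. Matrix genes held 8 of 12 higher (median 0.33), with Fn1, Vcan and Tgfbi at the top and the inhibitor Timp3 lower at 1715, 1124 and 1108. The monocyte markers, which were higher with these lists, differed by a median of 0.56, and their part in these lists was not tested. Some genes stand in both. They are Ctss in the MHC class II list, Cd14 in the Toll-like receptor list and Vcan in the matrix list. Among the Fc, scavenger and lectin receptors they are Fcgr1a, Fcgr3a, Clec10a and Fcna.

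Among glucocorticoid targets 12 of 17 were higher (median 0.072), with the metallothionein Mt2A at 577.38, 1421 and 1889 and Thbd named above. The receptor itself, Nr3c1, was at 1589, 1957 and 1613, and the classic targets Fkbp5 (878.44, 1111 and 843.71), Tsc22d3 (7824, 7608 and 8674) and Sgk1 (1790.3, 1813 and 1903) were all within 1.5-fold. Clock genes held 2 of 9 higher (median -0.28, but 0.038 with a floor at the 75th percentile), with Nr1d1 at 402.8, 266.23 and 279.5 and Per1 at 4300.4, 4666 and 3967. Beta-adrenergic and cAMP genes had a median of 0.021 over 13 genes (below 0 after quantile normalization). Heat shock genes had a median of 0.064 over 16, with Hspa1a at 390.23, 320.72 and 359.81. Over all counted genes 54.5% were higher, with a median of 0.028.

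Oxidative phosphorylation subunits were higher in 57 of 64, with a median of 0.17 and none at least 2-fold. Uqcr11 was at 1719.8, 2724 and 2088, Uqcrc1 at 1866, 2814 and 2245 and Atp5f1a, the alpha subunit of ATP synthase, at 2035, 3014 and 2344. Fatty acid oxidation and lipid droplet genes were higher in 22 of 28 (median 0.18), from Cd36 and the acyl-CoA synthetase Acsl5 (2076, 3543 and 2167) down to G0s2. The other Acsl5 probe set, at 583.73, 539.21 and 448.21, differed by -0.11 on the log2 scale. With its probe sets averaged Acsl5 was 0.33 higher. Glycolysis genes held 7 of 13 higher (median 0.11, but -0.096 without a floor), with Aldoa at 8174, 10575 and 7482 and the oxygen sensor Egln3 at 639.66, 362.55 and 380.78. Antioxidant genes held 14 of 21 higher (median 0.31), among them Gpx1, glutathione peroxidase, at 8277, 14117 and 13171 and Hmox1, which breaks down haem, at 633.97, 934.05 and 1155. Ribosomal protein genes held 18 of 28 higher (median 0.050, below 0 after quantile normalization) and proteasome genes 25 of 34 (median 0.11). Of all counted genes 54.5% were higher, with a median of 0.028. Cell cycle genes held 5 of 17 higher (median -0.13, and 6 of 30 with a median of -0.15 over every member on the array) and survival genes 8 of 25 (median -0.12). In the latter the death effector Bbc3 was at 1414, 780.44 and 1258 and the stress gene Gadd45b at 3340.2, 1874 and 3411, both low on the uphill array alone.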

How the data were processed

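Each of 3 groups (control, uphill, downhill) was measured on 1 Affymetrix rat 3' expression array. The deposited intensity values were made by the authors with RMA, per the submitters' processing notes (version not given in the sources used here), and are linear. The authors' other deposited column holds a present, marginal or absent call, whose algorithm is not stated. A second value table held equal values in all 93297 cells.

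Here log2 was taken without an offset. Of 31099 probe sets 19622 had 1 gene symbol, 800 several, 10620 none and 57 were controls. Symbols were updated by Entrez number through RefSeq (GRCr8), which matched 19186 and renamed 2874. The probe set with the highest mean log2 value over the 3 arrays stood for the 4064 genes with several. A fold is the ratio of intensities, written "at least" if the dimmer array had no present call and left out if the brighter had none. The number of arrays limits the precision, and no test was possible.

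The members, the 40 gene lists and the shown promoters were chosen with earlier results of these data known. 29 genes stand in more than 1 list. Named by rule were, outside the red cell lists, the 20 largest differences each way among genes present on the brighter array; of the red cell lists the 10 largest and each member at least 1.5-fold lower; of other lists up to 4 members of largest size; and of cell type lists the 2 brightest on the control array. Some genes that meet this rule are not reported here. Any other list member was named after its values were seen, to show its list. Promoter sequences came from RefSeq (GRCr8), with 6007 of 7320 genes matched. Alternatives were other folds, floors, scalings, probe set rules, an offset of 32 and a present call. The counting script was tested on simulated data. Python 3.11.15, numpy 2.4.6, pandas 2.3.3 and matplotlib 3.10.9 were used.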

Additional observations from a re-analysis of the deposited data

Results flagged for a closer look

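Probe sets shared between haemoglobin genes entered no gene count and lay far higher on the uphill than on the control array. The log2 differences were 3.73 and 3.83 for the Hbb probe sets and 2.47, 2.37 and 3.11 for the Hba-a2 probe sets. On the uphill array the Hba-a2 probe sets read 33326, 29480.0 and 30746, at the top of that array's range, and saturation was not tested. Among all probe sets above the floor with no symbol or several, 2967 in number, 27 exceeded control 2-fold or more and 15 were as far below it.

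A few named genes read on opposite sides of the control array in the uphill and downhill groups, and these differences were not tested. Both comparisons share the control array. The uphill and downhill log2 differences from control were 2.71 and -0.64 for Rsad2, 3.66 and -0.65 for Hbq1b, 2.94 and -1.003 for Hba-a3, and -0.96 and 0.89 for Hes1. Hbq1b and Hba-a3 were called absent on the control and downhill arrays, so their uphill values are lower bounds and their downhill values set 2 readings without a present call against each other and give no direction.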

How the results depend on the processing

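The number of genes called depended most on the fold and the floor. At 1.5-fold 240 were higher and 225 lower (225 and 223 without the red cell lists), and at 3-fold 21 and 6 (13 and 6). Without a floor 55 were lower, and with a floor at the 75th percentile 13 were lower, each with and without the red cell lists. The other settings gave counts within 1.5 times the reported ones, among them 58 higher and 34 lower after quantile normalization and 47 and 29 when probe sets of a gene were averaged. The settings moved the median of counted genes to between -0.014 and 0.053. Of list medians at least 0.1 in size, 3 changed sign, to -0.096 for glycolysis without a floor, 0.038 for clock genes at the higher floor and 0.00338 for muscle genes when the brighter array had to be present. The cause was not tested. Without a floor the median moved to 1.68 for the globin list, -0.77 for basophil and mast cell genes, -0.24 for chemokines and -0.15 for cytokine genes, and at the higher floor to -0.28 for AP-1 genes and 0.64 for haem genes. When the brighter array had to be present, the red cell membrane median moved to 0.54. Smaller medians, such as that of the NF-kB list, could also change sign. No named gene with a log2 difference of at least 1 in size changed sign under the settings run. However, the mean of probe sets brought Pgrmc2 to 0.75, RGD1564887 to 1.16, Isca1 to 0.56 and Thbd to 0.87 on the log2 scale. It brought Tnf to -1.004, Twnk to -0.54 and the red cell membrane median to 0.55. An offset of 32 brought Ptgs2 from -2.59 to -2.09 and Dnase2b from -2.37 to -2.10. The same offset brought Hdc from -2.21 to -1.99 and Selenbp1 from 2.41 to 2.07. The brightest probe set by linear mean, a setting chosen after seeing the data, gave 66 and 34, as did the brightest over the control and uphill arrays alone, also chosen after seeing the data. No paired analysis was possible because each group has 1 array. Array signal near background limits dim genes, and depth has no meaning here.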

Other observations

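Probe sets of 1 gene also parted for Col1a1, a chain of fibrillar collagen. The probe set brighter on average over the 3 arrays was at 217.79, 145.43 and 219.12 on the control, uphill and downhill arrays and absent on each, while the other, brighter over the control and uphill arrays alone, was at 124.99, 388.19 and 106.56 and present on each. It was named after its values were seen.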
